A study of Mus musculus with 6 samples.

Results

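The lysosomal cathepsins described here are 9 genes taken by name from the table of gene counts: Ctss, Ctsc, Ctsh, Ctsz, Ctsb, Ctsd, Ctsl, Ctsa and Ctsk. All 9 were among the 44792 gene symbols of the table, and all 9 were among the 14370 genes that passed the filter on low counts. The names were selected on the genotype difference measured in these same 6 hearts, so the members' fold changes are given here as a description and carry no test of the group. The hearts came from C57BL/6 mice aged 3 months, with 3 wild type animals and 3 carrying a mutation, R193H, in cTnI, the troponin subunit that holds back contraction of heart muscle at rest. Neither group was treated. The number of altered alleles in the mutant animals, and how the mutation was made, are not stated in the labels. The hearts of a group are described as biological repeats, each heart gave 1 RNA library, and the tissue is the heart as a mixture of all its cells.

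Cathepsins are proteases of the lysosome, the acidic compartment where cells break down proteins delivered by endocytosis and autophagy. Most are cysteine proteases of the papain family, while cathepsin D is an aspartic protease and cathepsin A a serine carboxypeptidase. They are made as inactive precursors, are carried to the lysosome largely by mannose 6-phosphate receptors, and are activated by acid and by proteolysis. The cysteine proteases among them are held in check outside the lysosome by cystatins. Some are made in nearly every cell, whereas others are abundant in macrophages and other leukocytes, and cathepsin K is best known from osteoclasts and is also made by fibroblasts. On that known expression the members were divided into leukocyte enzymes (Ctss, Ctsc, Ctsh and Ctsz), enzymes of all cells (Ctsb, Ctsd, Ctsl and Ctsa) and Ctsk. The division is a convention, because Ctsc, Ctsh and Ctsz are also found in other cells.

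Libraries held 14736067 to 20652534 counts in wild type hearts and 19582600 to 21852210 in R193H hearts. Values are given as CPM, the usual scale of read counts divided by the library total, after adjustment by the trimmed mean of M values (TMM). A count of 0 allows a level of up to 0.135 to 0.213 CPM at these totals (3 counts, counting error only). Tnni3, the gene of cTnI, was present in every heart at 3199 to 3463 CPM with the wild type allele and at 3637 to 3896 CPM with R193H, and counts per gene do not show the substitution. The cardiomyocyte markers Myh6, Tnnt2, Tnni3, Actc1, Ryr2 and Myl2 summed to 35721 to 38060 CPM in the wild type group, against 33159 to 34880 CPM with R193H. R193H replicate 2 stood apart from the other hearts, with 30.6% of its counts from mitochondrially encoded genes against 34.9% to 36.2% elsewhere. Its fibroblast markers summed to 1563 CPM, against 1037 to 1252 CPM in the other 5 hearts. Among wild type hearts, replicate 2 had 257 CPM of 5 erythroid genes and replicates 1 and 3 had 3091 and 2971 CPM, against 476 to 629 CPM with R193H. Neutrophil markers summed to 19.3, 2.12 and 9.31 CPM in wild type replicates 1, 2 and 3 and to 4.39 to 5.53 CPM with R193H, and atrial markers ranged from 0.701 to 169 CPM over all hearts. The part of these cells in the cathepsin levels was not tested.

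Promoter letters of 2 leukocyte enzymes and 2 enzymes of all cells are shown first, because these 4 members differ in the motifs they hold. Windows of 300 bases around gene starts were taken from RefSeq on GRCm38.p6, and 7 of the 9 genes had one. Ctsh and Ctsb had none. Capitals mark matches, and positions count from the annotated start on which each window is built as base 1, with the base before it as -1. That start lies at 88278085 for Ctsc, 61 bases inside the outermost start of the gene, and at 64370520 for Ctsl, 252 bases inside it.
Ctss, leukocyte enzyme, chr3:95526686-95526805, plus strand: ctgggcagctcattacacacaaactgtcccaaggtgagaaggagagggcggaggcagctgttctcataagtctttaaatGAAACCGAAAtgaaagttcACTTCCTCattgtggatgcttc
Ctsc, leukocyte enzyme, chr7:88277885-88277984, plus strand: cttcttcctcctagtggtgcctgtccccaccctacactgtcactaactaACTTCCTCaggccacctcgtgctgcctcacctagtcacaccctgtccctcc
Ctsd, enzyme of all cells, chr7:142387828-142388077, minus strand: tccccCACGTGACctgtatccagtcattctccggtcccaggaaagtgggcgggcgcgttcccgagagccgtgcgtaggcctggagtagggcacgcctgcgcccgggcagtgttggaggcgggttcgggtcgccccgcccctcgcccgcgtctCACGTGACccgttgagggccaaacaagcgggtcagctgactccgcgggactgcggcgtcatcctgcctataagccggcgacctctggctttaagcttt
Ctsa, enzyme of all cells, chr2:164833673-164833792, plus strand: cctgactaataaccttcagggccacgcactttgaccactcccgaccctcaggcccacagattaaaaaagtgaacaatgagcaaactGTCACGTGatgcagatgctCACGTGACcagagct

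In Ctss the capitals from -21 to -12 match GAAA and GAAA separated by 2 bases of any kind, the core of the interferon-stimulated response element, which 3.43% of 32817 promoter windows held on either strand. Those from -2 to 6 match GAGGAAGT on the opposite strand, a form of the site of the myeloid factor PU.1, which 3.2% of windows held. Ctsc held GAGGAAGT once, from -151 to -144, on the opposite strand. Neither Ctss nor Ctsc held CACGTG, the E-box core that factors of the TFEB family read. Ctsd held CACGTG at 2 places, starting at -245 and -98, and Ctsa at 2 places, starting at -12 and 6 of its second annotated start. All 4 of these matches extended to GTCACGTG on one of the strands, a longer form found in 2.24% of windows, while CACGTG alone was found in 7.15%. Ctsl held CACGTG once, starting at -236 from the start given above and thus within the outermost limits of the gene. Ctsz, Ctsk and the first annotated start of Ctsa held none of these motifs, nor did any of the 7 genes hold the composite ETS and interferon element, GGAA and GAAA separated by 2 bases of any kind (2.72% of windows). A match is a run of letters and not a measured binding site, and the series measured no factor at these promoters.

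In wild type hearts the 9 members spanned from Ctsd at 521 ± 34.6 CPM per kilobase of transcript to Ctsk at 4.04 ± 0.211 (SD, n = 3). Lengths came from the longest principal coding transcript of GENCODE M21, on GRCm38. Ctsb came next at 114 ± 3.63 CPM per kilobase, followed by Ctsa at 34.6 ± 2.70, and neither overlapped its neighbours in the order over the wild type hearts. Ctsz (25.2 ± 3.06), Ctsl (22.8 ± 1.30) and Ctsh (16.6 ± 5.13) followed, with overlapping values from each to the next in order. Ctsh overlapped Ctsc (15.0 ± 1.80) as well, and Ctsc lay above Ctss (4.22 ± 0.386) in every wild type heart. Ctss and Ctsk overlapped each other at the low end.

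The place of Ctsl depends on the length used. Its principal transcript has 6168 bases, of which 1002 code for protein, and per kilobase of coding sequence Ctsl stood at 141 ± 8.03, directly after Ctsb and above Ctsa at 85.4 ± 6.67. Ctsd and Ctsb stayed first and second, and Ctss and Ctsk stayed in the last 2 places, whether transcript length, coding length or the union of all exons was used. In the R193H hearts Ctss averaged 7.70 ± 1.28 (SD, n = 3) and Ctsk 4.04 CPM per kilobase of transcript, and every R193H heart had more Ctss than Ctsk.

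**Figure D1:**
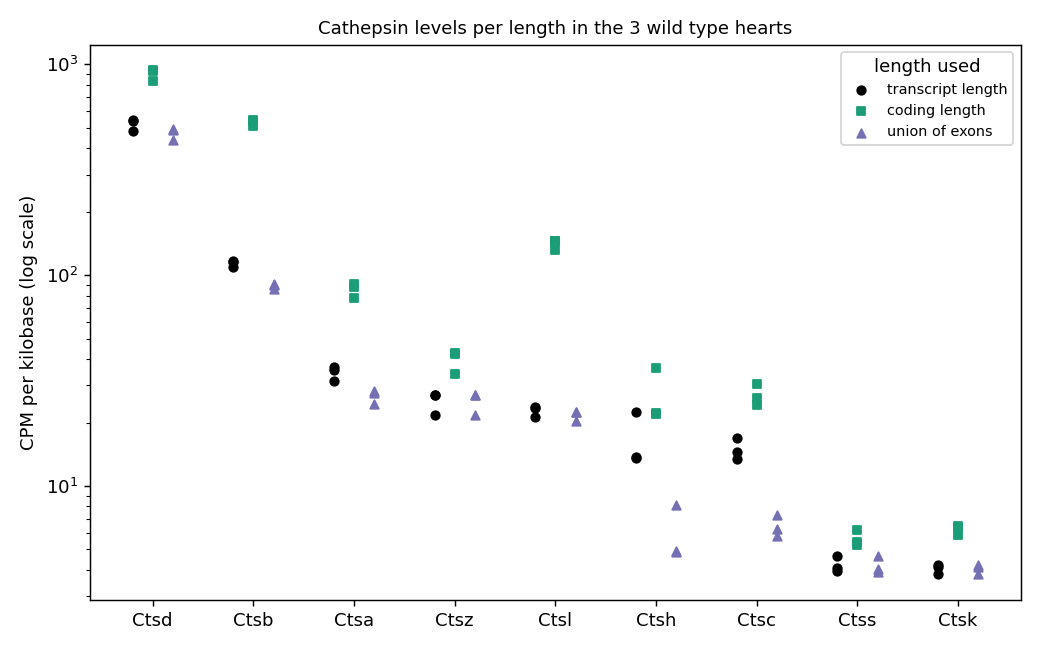
CPM per kilobase in the 3 wild type hearts (log axis) for the 9 cathepsins, ordered by the transcript-length value, with 1 point a heart and a symbol for each of 3 lengths. Ctsd and Ctsb lead under every length, Ctss and Ctsk come last, and Ctsl moves from 22.8 to 141 with the coding length.

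Ctss encodes cathepsin S, a cysteine protease of macrophages, dendritic cells and B cells that trims the invariant chain from major histocompatibility complex (MHC) class II molecules. The gene lies at chr3:95526786-95556405 on the plus strand, 17398 bases downstream of the end of Ctsk. It measured 6.31, 5.33 and 5.50 CPM in wild type replicates 1, 2 and 3 (89, 88 and 110 counts) and 11.99, 10.7 and 8.56 CPM in R193H replicates 1, 2 and 3 (267, 235 and 184 counts). Every R193H heart lay above every wild type heart, with R193H replicate 3 nearest to them. The mean in R193H hearts was 1.83 times that in wild type hearts (10.4 ± 1.74 against 5.71 ± 0.523 CPM, SD, n = 3 each), which is 0.87 on the log2 scale (SE 0.16). With each heart left out in turn this difference ranged from 0.76 to 1.0 on the log2 scale, both ends coming from R193H hearts (replicates 1 and 3 left out).

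The other 3 leukocyte enzymes, Ctsz, Ctsc and Ctsh, had smaller log2 fold changes. Ctsz (chr2:174427494-174439039, minus strand) encodes cathepsin Z, a carboxypeptidase of the papain family that is prominent in myeloid cells. It measured 31.3, 38.8 and 39.0 CPM in wild type and 40.7, 48.2 and 39.0 CPM in R193H replicates 1, 2 and 3. The lowest R193H heart and the highest wild type heart were equal at 3 digits, so the groups only just avoided overlap. Its log2 fold change was 0.23 (SE 0.11), and 0.13 when either wild type replicate 1 or R193H replicate 2 was left out. The opposite-strand gene Nelfcd overlaps Ctsz in the annotation, and since the strand of the reads is not given, counts of the shared part are uncertain.

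Ctsc encodes cathepsin C, the dipeptidyl peptidase that activates granule serine proteases of neutrophils, mast cells and cytotoxic lymphocytes. The gene (chr7:88278024-88315861, plus strand) measured 42.3, 36.1 and 33.5 CPM in wild type and 41.7, 58.4 and 35.2 CPM in R193H replicates 1, 2 and 3. R193H replicate 2 was the highest heart and the other 2 R193H hearts lay within the wild type range. The log2 fold change of 0.28 (SE 0.19) was 0.049 without R193H replicate 2 and 0.43 without R193H replicate 3.

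Ctsh encodes cathepsin H, an aminopeptidase. The gene (chr9:90054267-90076095, plus strand) measured 22.2, 36.4 and 21.9 CPM in wild type and 19.1, 35.5 and 16.2 CPM in R193H replicates 1, 2 and 3. It was high in 1 heart of each genotype, and the groups overlapped over most of their range. Its log2 fold change was -0.18 (SE 0.38), 0.10 with wild type replicate 2 left out and -0.60 with R193H replicate 2 left out. The same 2 hearts held the most adipocyte marker RNA. Adipoq, Plin1 and Cidec, all 3 tested, summed to 3.83, 13.4 and 1.80 CPM in wild type and 1.44, 12.3 and 3.21 CPM in R193H replicates 1, 2 and 3. The part of fat tissue in the level of Ctsh was not tested.

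**Figure D2:**
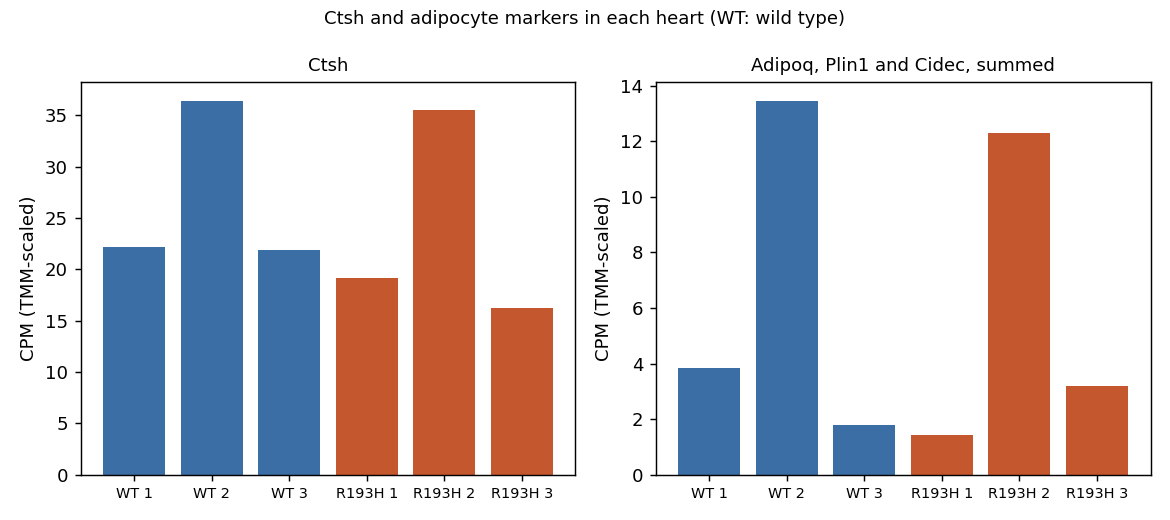
Ctsh (left) and the sum of the adipocyte markers Adipoq, Plin1 and Cidec (right) in CPM, with 1 bar a heart and axes from 0. Wild type replicate 2 and R193H replicate 2 are the highest hearts in both panels, at 36.4 and 35.5 CPM for Ctsh.

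The 4 enzymes of all cells had nearly the same level in both genotypes. Ctsb encodes cathepsin B, a cysteine protease with endopeptidase and peptidyl-dipeptidase activity, and lies at chr14:63122462-63145923 on the plus strand. It measured 519, 552 and 545 CPM in wild type and 554, 566 and 510 CPM in R193H replicates 1, 2 and 3, and the groups overlapped. The log2 fold change was 0.012 (SE 0.081).

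Ctsd encodes cathepsin D, the main aspartic protease of lysosomes, and lies at chr7:142375910-142387827 on the minus strand. It was the most abundant member, at 1024, 1159 and 1143 CPM in wild type and 1124, 926 and 1192 CPM in R193H replicates 1, 2 and 3. R193H replicate 2 was the lowest heart and R193H replicate 3 the highest, so the wild type values lay inside the R193H range. The log2 fold change was -0.037 (SE 0.11).

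Ctsl, the gene of the endopeptidase cathepsin L (chr13:64361890-64370772, minus strand), measured 132, 145 and 146 CPM in wild type and 145, 139 and 149 CPM in R193H replicates 1, 2 and 3, with a log2 fold change of 0.037 (SE 0.079). Ctsa, whose product protects beta-galactosidase and neuraminidase 1 in a lysosomal complex (chr2:164832872-164841032, plus strand), measured 115, 130 and 133 CPM in wild type and 126, 114 and 131 CPM in R193H replicates 1, 2 and 3, with a log2 fold change of -0.026 (SE 0.090). Both pairs of groups overlapped. Ctsb overlaps Fdft1 on the other strand, and Ctsa overlaps Neurl2 and Pltp, so their counts carry the same uncertainty as those of Ctsz. It applies as well to Ctsc with Gm26522 and to Ctsl with Gm47123, both on the other strand. Ctss overlaps the pseudogene Hmgb1-ps5, Ctsd overlaps Gm49369 and Ctsl overlaps the pseudogene Gm49230, each on the same strand. Counts of those shared parts are uncertain whatever the strand of the reads. Ctsh and Ctsk overlap no annotated gene. Scaling by library totals moved the median of all genes to 0.13 and placed these 4 log2 fold changes between 0.083 and 0.16, close to that shift.

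Ctsk encodes cathepsin K, the collagen-degrading enzyme, and is the upstream neighbour of Ctss at chr3:95499210-95509387 on the plus strand. It measured 6.24, 5.75 and 6.36 CPM in wild type and 6.24, 7.86 and 4.23 CPM in R193H replicates 1, 2 and 3, from 88 to 172 counts. R193H replicate 2 was above and R193H replicate 3 below all wild type hearts, and the group means were 6.12 and 6.11 CPM. The log2 fold change was -0.00047 (SE 0.22), -0.22 without R193H replicate 2 and 0.21 without R193H replicate 3. R193H replicate 2 was also the heart with the most fibroblast marker RNA, with all 6 markers (Pdgfra, Tcf21, Dcn, Lum, Col1a1 and Col1a2) tested, and the part of fibroblasts in its Ctsk level was not tested. Of 4 osteoclast genes, Ocstamp and Calcr had at most 3 counts in any heart. Acp5 had 18, 18 and 8 counts in wild type and 29, 27 and 26 in R193H replicates 1, 2 and 3. In CPM these were 1.28, 1.09 and 0.400 against 1.30, 1.23 and 1.21, and the groups overlapped (log2 fold change 0.47, SE 0.42). Atp6v0d2, which was not tested, had 0 to 2 counts in wild type and 4 to 9 counts in R193H hearts. Acp5 and Atp6v0d2 were named after their values were seen.

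**Figure D3:**
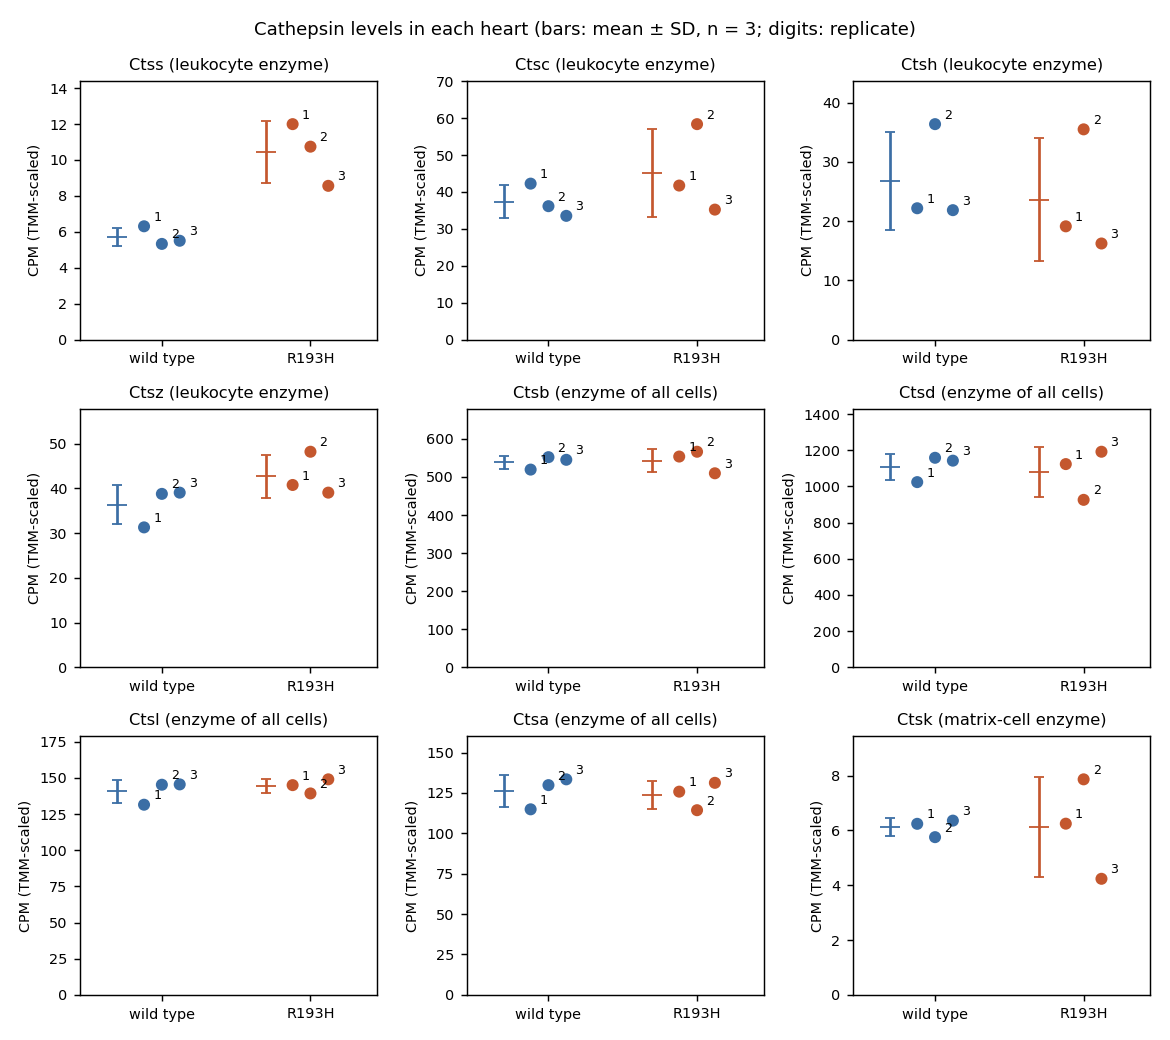
CPM of each of the 9 cathepsins in each heart, with digits for the replicate and a bar for the mean ± SD (n = 3) beside each group, on axes from 0. Ctss separates the genotypes (5.33 to 6.31 against 8.56 to 11.99 CPM), while Ctsb, Ctsd, Ctsl, Ctsa and Ctsk overlap and Ctsh is high in replicate 2 of both groups.

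Read as a set, 5 of the 9 members had a log2 fold change above 0, against 49.9% of all genes tested. In 2 of the 9, Ctss and Ctsz, every R193H heart lay above every wild type heart, which held for 6.01% of all genes tested. None had the reverse order, which held for 5.81%. Since the members were listed with this contrast known, nothing is read from these shares. The median log2 fold change was 0.25 over the 4 leukocyte enzymes, -0.0073 over the 4 enzymes of all cells and -0.00038 over all genes tested.

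The edgeR quasi-likelihood test with Benjamini-Hochberg adjustment over all genes called 0 of the 9 (1, Ctss, at an unadjusted p under 0.05 and higher, against 3.22% of all genes tested). It called 0.00696% of all genes tested, which is 1 of 14370. DESeq2 called 1 of the 9, Ctss, against 0.299% of all genes tested, and limma-voom called 0 of the 9, against 0.00696% of all genes tested. Ctss was also called by edgeR with no filter on low counts and without R193H replicate 3. The call of Ctss therefore depended on the tool and the setting, while its direction was the same in all 14 alternatives.

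The distance between the leukocyte enzymes and those of all cells was taken within each heart as the difference of mean log2 CPM. It was -3.84, -3.85 and -4.05 in wild type and -3.70, -3.23 and -3.97 in R193H replicates 1, 2 and 3. R193H replicate 3 fell among the wild type values, so the groups overlapped. Over Ctsc, Ctsh and Ctsz alone, the mean log2 CPM relative to its wild type mean was -0.034, 0.50 and -0.21 in R193H replicates 1, 2 and 3, against -0.096 to 0.18 in wild type hearts. Of the R193H hearts, replicate 2 lay above the wild type range in these 3 genes, replicate 1 inside it and replicate 3 below it.

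Macrophage markers were read beside Ctss. Of 16 markers (Adgre1, listed as Emr1, Csf1r, Cd68, Fcgr1, Mertk, C1qa, C1qb, C1qc, Cd14, Aif1, Mrc1, Lyve1, Cd163, F13a1, Timd4 and Folr2), 15 had a log2 fold change above 0 (49.9% of all genes tested), and none was at 0. In 7 of the 16 every R193H heart lay above every wild type heart (6.01% of all genes tested). edgeR called 0 of them (0.00696% of all genes tested), and 9 were higher at an unadjusted p under 0.05 (3.22% of all genes tested). DESeq2 called 2, C1qa and C1qb (0.299% of all genes tested), and limma-voom called 0 (0.00696%). Their sum was 321 to 373 CPM in wild type hearts, against 373 to 518 CPM with R193H, with R193H replicate 3 level with wild type replicate 3. In bulk tissue, more cells of a type and more RNA per cell cannot be told apart. The log2 ratio of Ctss to that sum was -5.67, -5.93 and -6.08 in wild type and -5.32, -5.59 and -5.44 in R193H replicates 1, 2 and 3. The groups did not overlap in this ratio, which was higher by 0.44 in R193H hearts, and by 0.35 to 0.56 with single hearts left out. Abundant markers weigh most in the sum, so the ratio depends on the markers summed. Of the 16, Aif1 (1.33) and Fcgr1 (1.09) had larger log2 fold changes than Ctss (0.87), and the other markers had smaller ones.

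Set against the pan-leukocyte genes Ptprc, Laptm5 and Coro1a, the log2 ratio of Ctss was -3.24, -2.99 and -3.06 in wild type and -2.65, -2.68 and -2.61 in R193H replicates 1, 2 and 3. These groups did not overlap either, and their means differed by 0.45. In contrast, the log2 ratio of Ctsb to the macrophage sum was lower in every R193H heart (0.21, 0.13 and 0.45) than in any wild type heart (0.69, 0.76 and 0.55). The level of Ctsb stayed near that of wild type while the markers were higher. Ctss was the only member with a higher mean ratio to the macrophage sum in R193H hearts. For the leukocyte enzymes Ctsc, Ctsh and Ctsz the mean log2 ratio differed by -0.17, -0.64 and -0.18, with overlapping groups. Markers of dendritic cells, which also make cathepsin S, were Flt3, Xcr1, Clec9a, Cd209a and Itgax. They summed to 2.62 to 4.42 CPM in wild type hearts, against 4.28 to 7.05 CPM with R193H, and the groups overlapped. Of these markers, 5 of 5 had a higher mean (49.9% of all genes tested), with Cd209a at a log2 fold change of 0.020. Flt3, Xcr1, Clec9a and Cd209a had only 2 to 27 counts a heart. Lymphocyte markers summed to 2.85 to 13.97 and 4.56 to 6.49 CPM in the respective groups. The part of each of these cell types in the level of Ctss was not tested.

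**Figure D4:**
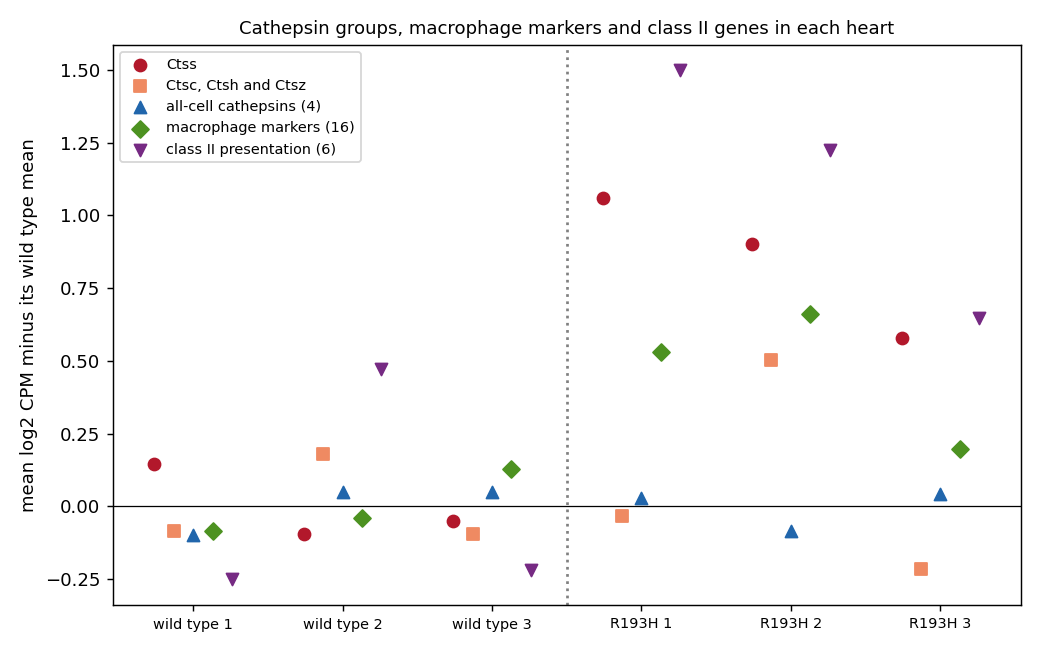
Mean log2 CPM of Ctss, of Ctsc, Ctsh and Ctsz, of the 4 all-cell cathepsins, of 16 macrophage markers and of 6 class II presentation genes in each heart, minus the wild type mean of each. In R193H replicates 1, 2 and 3 Ctss stands at 1.06, 0.90 and 0.58, while the all-cell cathepsins stay between -0.098 and 0.049 in all 6 hearts.

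Genes of the pathway outside the 9 members were read from the same fit. Of 103 such genes in lists of other cathepsins, inhibitors, partners, sorting, hydrolases, membrane, proton pump, regulators, class II presentation and granule proteases, 81 were tested and 12 had no count in any heart. edgeR called 0 of the 81 after adjustment over all genes, with 11 higher and 2 lower at an unadjusted p under 0.05 (3.22% and 2.51% of all genes tested). Of the 11 higher, 6 were the tested class II presentation genes. DESeq2 called 2, the class II genes Ciita and H2-DMb1 (0.299% of all genes tested), and limma-voom called 0 (0.00696%). The median log2 fold change over the 81 was 0.074.

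The class II list had the highest median. Cathepsin S acts on the invariant chain Cd74, which fills the groove of class II molecules until it is cut, and Ciita is the transcriptional activator of these genes. Cd74 measured 130, 223 and 141 CPM in wild type and 441, 349 and 262 CPM in R193H replicates 1, 2 and 3, a log2 fold change of 1.09 (SE 0.28). Ciita measured 3.33, 4.6 and 3.20 CPM in wild type and 10.3, 8.5 and 5.26 CPM in R193H replicates 1, 2 and 3 (log2 fold change 1.11, SE 0.26). In both genes R193H replicate 1 was the highest heart and replicate 3 the lowest of the R193H group, as for Ctss, and the groups did not overlap.

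H2-Aa, a class II alpha chain, had a log2 fold change of 1.17 (SE 0.28), and H2-DMb1, part of the peptide exchange factor, 1.22 (SE 0.34). Over the 6 tested class II genes the median was 1.14, and 6 of 6 means were higher, 5 of them with every R193H heart above every wild type heart, against 49.9% and 6.01% of all genes tested. H2-DMb1 was the exception, since R193H replicate 3 (5.49 CPM) lay below wild type replicate 2 (5.57 CPM). H2-DMa held at most 3 counts in any heart and was not tested. How reads were counted is not given, so this is not read as absence of expression. Ifi30, the lysosomal thiol reductase that unfolds antigens, had a log2 fold change of 0.34 (SE 0.25) with overlapping groups, and was named after its value was seen.

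Among the other cathepsins, 3 of 14 were tested. Ctsf, a further papain-family cathepsin, averaged 37.4 CPM without and 36.8 CPM with the mutation (log2 fold change -0.021, SE 0.073), with all 6 hearts between 36.7 and 37.9 CPM. Ctso measured 17.1 and 19.6 CPM (0.19, SE 0.11). Ctsw, a cathepsin of cytotoxic lymphocytes, had 2, 15 and 3 counts in wild type and 37, 17 and 13 counts in R193H replicates 1, 2 and 3 (1.34, SE 0.71), and the groups overlapped in CPM. Ctse had 2 to 11 counts and the neutrophil enzyme Ctsg 0 to 2 counts a heart. The 9 genes of the placental cluster (Ctsj, Ctsm, Ctsq, Ctsr, Cts3, Cts6, Cts7, Cts8 and Ctsll3) had 0 counts in every heart.

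Of the inhibitors, 5 of 10 were tested and all 5 means were higher with R193H (median 0.33), against 49.9% of all genes tested. Cst3, the secreted cystatin C, averaged 245 ± 21.8 CPM without and 260 ± 22.2 CPM with the mutation (SD, n = 3, log2 fold change 0.085, SE 0.098). Cstb, a cystatin of the cytosol, stood at 0.33 (SE 0.17), and the secreted Cst6 at 0.55 (SE 0.24) from 31 to 72 counts a heart. Serpina3g, a serpin that also inhibits cysteine cathepsins, measured 0.709, 1.57 and 1.25 CPM in wild type and 15.0, 3.79 and 1.16 CPM in R193H replicates 1, 2 and 3. R193H replicate 1 was by far its highest heart, while R193H replicate 3 fell among the wild type values. Serpinb6a stood at 0.056 (SE 0.085), and Stfa1, Stfa2 and Stfa3 had 0 counts.

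Lgmn, the asparaginyl protease legumain that processes cathepsins to their mature chains, measured 96.1, 118 and 106 CPM in wild type and 135, 141 and 102 CPM in R193H replicates 1, 2 and 3 (log2 fold change 0.24, SE 0.13), and the groups overlapped. Psap, the precursor of the saposins and a sorting partner of cathepsin D, stood at 0.045 (SE 0.088) and Grn, the progranulin gene, at 0.19 (SE 0.12). Neu1, which depends on cathepsin A, measured 23.0 ± 0.722 and 22.2 ± 0.744 CPM (-0.054, SE 0.085). Glb1, the other enzyme of that complex, had 1 count over the 6 hearts and was not tested. As for H2-DMa, this is not read as absence of expression.

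The sorting genes showed 3 higher and 4 lower means over 7 tested (49.9% of all genes tested were higher). Igf2r, the large mannose 6-phosphate receptor, was lower in every R193H heart (162, 172 and 180 CPM) than in any wild type heart (194, 194 and 189 CPM), with a log2 fold change of -0.17 (SE 0.077). M6pr, the small receptor, stood at 0.073 (SE 0.078), and Gnptab and Nagpa, enzymes that build the mannose 6-phosphate tag, at -0.12 (SE 0.078) and 0.14 (SE 0.14). Sort1, a sorting receptor outside that route, had the widest difference of the 7, at -1.58 (SE 0.65) from 4 to 30 counts a heart with overlapping groups, and was named after its values were seen.

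Of 31 other hydrolases and cofactors tested, 24 had a higher mean, against 49.9% of all genes tested, and 7 a lower mean. Their median was 0.096. Arsb, arylsulfatase B, measured 1.99, 2.18 and 2.85 CPM in wild type and 3.64, 4.75 and 3.35 CPM in R193H replicates 1, 2 and 3. The groups did not overlap, and the log2 fold change was 0.73 (SE 0.23). Gm2a, a cofactor of ganglioside breakdown, and Acp2, lysosomal acid phosphatase, stood at 0.21 (SE 0.11) and 0.17 (SE 0.094).

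Lysosomal membrane and lumenal transport genes had 4 higher and 5 lower means of 9 tested (median -0.0026), where 49.9% of all genes tested were higher. Npc2, a cholesterol carrier of the lysosome lumen, was higher in every R193H heart at 0.23 (SE 0.080), while Slc38a9, an amino acid sensor, was lower in every R193H heart at -0.51 (SE 0.17). Mcoln1, a calcium channel, was also lower in every R193H heart, at -0.14 (SE 0.092), and Cd63 stood at 0.088 (SE 0.083). Over all genes tested, 6.01% were higher and 5.81% lower in every R193H heart than in any wild type heart. The 9 tested subunits of the proton pump that acidifies the lysosome had a median of 0.0050, with Atp6v0a1 at -0.20 (SE 0.10), Atp6v0c at 0.32 (SE 0.24), Atp6v1a at 0.091 (SE 0.099) and Atp6v1b2 at -0.070 (SE 0.077).

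Tfeb, Tfe3 and Mitf, whose products activate lysosomal genes through the E-box shown for Ctsd and Ctsa, stood at -0.025 (SE 0.086), 0.074 (SE 0.093) and -0.43 (SE 0.35). Among granule proteases that cathepsin C activates, 4 of 8 were tested. Gzmb, granzyme B of cytotoxic lymphocytes, had 5, 6 and 2 counts in wild type and 65, 24 and 11 counts in R193H replicates 1, 2 and 3 (log2 fold change 2.5, SE 0.76), with no overlap in CPM. The mast cell proteases Cma1, Mcpt4 and Tpsb2 stood at -0.033 (SE 0.43), 0.085 (SE 0.66) and 0.25 (SE 0.53).

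**Figure D5:**
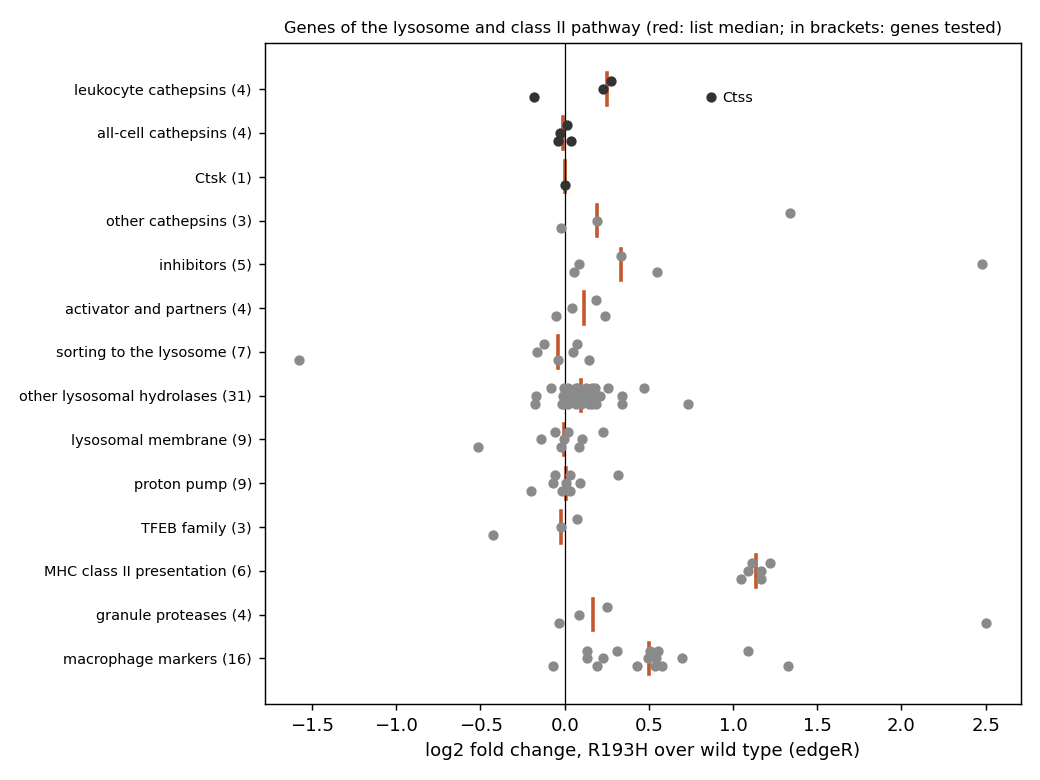
Log2 fold change of R193H over wild type for each tested gene (points, edgeR), by list, with the list median as a red line and the number of genes tested in brackets. Ctss at 0.87 stands away from the other 8 members, while Ctsw, on the list of other cathepsins, lies further out at 1.34. The class II genes lie between 1.04 and 1.22, and the proton pump list has its median at 0.0050.

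The genes with the pattern most like Ctss over the 6 hearts were Ptpn7, Tifab, Slfn8, Rps13-ps2 and Itgb2. Likeness was the root mean square difference of log2 CPM after centring each gene on its own mean, which was 0.107, 0.136, 0.136, 0.143 and 0.148 for these 5 out of 11777 candidates with a mean of at least 1 CPM. Itgb2 is the beta chain of the leukocyte integrins, and Ptpn7 is a phosphatase of blood cells. Rps13-ps2 is a ribosomal protein pseudogene whose reads may be shared with its parent gene, so its counts are uncertain. The nearest to Ctsb were Cyb561d1, Taf10, Snx15, Tarbp2 and Lzts2, with differences of 0.0113 to 0.0214. Their log2 fold changes lay between -0.013 and 0.021.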

How the data were processed

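The deposited table holds whole-number counts of reads for each gene symbol in 6 hearts. The submitters' processing notes name HISAT2 2.0.4 and the build GRCm38. How reads were counted, with which strand setting and with what rule for multiply mapped reads, is not given in the sources used here. Columns were matched to hearts by sample title and groups by genotype. Replicate numbers follow the order of listing and pair no hearts. Every pair of hearts differed beyond sampling noise (chi-square per degree of freedom of at least 12.2).

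In R 4.3.3 with edgeR 4.0.16, filterByExpr kept 14370 genes, libraries were scaled by TMM, and R193H was compared with wild type by the robust quasi-likelihood test without covariates, at an adjusted p of 0.05 (Benjamini-Hochberg, two-sided). The SE is the absolute log2 coefficient of the fit, without edgeR's shrinkage, divided by the root of F. The log2 fold changes given from edgeR are its shrunken values. Log2 CPM used a prior count of 2. The procedure was tested on simulated data. Alternatives were 3 other scalings, leaving out mitochondrial genes, 2 other filters, DESeq2 1.42.0, limma-voom (limma 3.58.1) and each heart left out. RefSeq lengths per transcript were not used here, so lengths came from GENCODE M21. The symbol Adgre1 was matched to Emr1 by RefSeq synonym.

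The members and gene lists were chosen with earlier results of these data known. Named genes were the 9 members, other cathepsins with counts, of each list every gene if at most 5 were tested and otherwise the 4 with the smallest unadjusted p at a mean of at least 1 CPM, and the 5 genes most like Ctss and Ctsb. 1 gene that this rule names is not reported here.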

Additional observations from a re-analysis of the deposited data

How the results depend on the processing

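Counts of calls moved with the tool. Over all genes, edgeR called 1, DESeq2 43, edgeR with no filter 38, edgeR without mitochondrial genes 0, and edgeR with single hearts left out 3 to 23. Among the 9 cathepsins the count was 0, with 1 (Ctss) in DESeq2, with no filter and without R193H replicate 3, so 0 to 1 with single hearts left out. Among the other lysosomal and class II genes it was 0, with 2 in DESeq2, 1 with no filter and 0 to 2 with single hearts left out, the highest without R193H replicate 3. DESeq2 gave no adjusted p to some genes, among them Ctsw and Gzmb. The median log2 fold change of the leukocyte cathepsins was 0.25 and lay between 0.092 (without R193H replicate 2) and 0.39 (library totals). That of the all-cell cathepsins was -0.0073 and moved to 0.12 under library totals, where the median of all genes was 0.13, and lay between -0.051 and 0.047 with single hearts left out. Ctss, Ctsc and Ctsz kept a positive log2 fold change in all 14 alternatives, and the other 6 members had both signs. Ctss and Ctsk rest on 88 to 267 counts a heart, which limits their precision. No paired analysis was possible because the labels give no number shared between the groups. The length and marker alternatives, union of exons and pan-leukocyte ratio, were chosen after seeing the data.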

Other observations

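Of 4 listed monocyte markers (Ly6c2, Ccr2, Plac8 and Chil3), 3 were tested. Ccr2, a receptor of recruited monocytes, had the largest log2 fold change of these, at 1.56 (SE 0.59). Wild type replicates 1, 2 and 3 held 3.40, 1.82 and 1.05 CPM of it. The R193H hearts held 6.38, 9.10 and 2.56 CPM in the same order, and R193H replicate 3 fell among the wild type values. Ly6c2 (0.36, SE 0.36) and Plac8 (0.79, SE 0.57) had smaller differences with overlapping groups. Chil3, which was not tested, had a lower mean with R193H (0.215 against 0.471 CPM, from 0 to 15 counts a heart). Mertk was the 1 macrophage marker of 16 with a lower mean in R193H hearts (log2 fold change -0.070, SE 0.11). The other 15 had higher means, among them Timd4 at 0.50 (SE 0.28) and Folr2 at 0.43 (SE 0.16). Lyve1 stood at 0.19 (SE 0.15) and Cd163 at 0.13 (SE 0.24). Aif1 had the largest difference of the 16 in edgeR, at 1.33 (SE 0.31). These genes were named after their values were seen.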
